A study of Mus musculus with 29 samples.

Results

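The 36 genes described here encode the degradative machinery of the lysosome and its best-known regulators. They comprise 10 cysteine cathepsins and legumain, 5 other proteases and cofactors, and 7 glycosidases and lipid or thioester hydrolases. The rest are 2 cholesterol exporters, 8 lysosomal membrane proteins and the 4 MiT/TFE transcription factors. All 36 were chosen by name from 21938 protein-coding genes and were found in the annotation. A gene window is the gene body extended by 20 kb on each side, and a promoter window is 1 kb on each side of the gene's 5′ end. A peak was counted once per start and end, and a peak belonged to a gene when it overlapped the window by at least 1 bp.

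The study mapped chromatin in mouse cells with CUT&RUN, in which an antibody directs a nuclease that cuts out the DNA around its target. IRF8 was mapped with an antibody to GFP in female IRF8-EGFP mice: in microglia at postnatal day 9 (P9, 4 libraries) and postnatal day 14 (P14, 3 libraries), in adult microglia (3 libraries) and in peritoneal macrophages (3 libraries). Adult female WT and IRF8KO microglia gave libraries for PU.1 and for 2 histone modifications, H3K27ac and H3K4me1, with 2 libraries per genotype and target. The macrophage libraries carry that name in their titles, which were followed here, although the source field of their labels says microglia. The sorting protocol in the labels gives an age of 3 months and was read here as that of the adult microglia only. It describes 1 WT and 1 IRF8KO brain and does not say which libraries came from separate animals, so p-values measure only the spread between these libraries, which may be technical. The labels state that 4 of 7 P9 libraries and 2 of 3 IRF8KO H3K27ac libraries were provided.

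Microglia are the resident phagocytes of the brain, and peritoneal macrophages are phagocytes of the body cavity. Both take up debris and digest it in lysosomes, where cathepsins cut proteins, glycosidases and lipases take apart sugars and lipids, and the membrane proteins form the limiting membrane, its channels and its proton pump. IRF8 is a transcription factor of the myeloid lineage that binds DNA weakly alone and often with PU.1 on a composite of an ETS and an IRF element. TFEB, TFE3, MITF and TFEC bind the CLEAR element, an E-box found at many lysosomal promoters. H3K4me1 marks enhancers, and H3K27ac marks active enhancers and promoters.

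The sequences that carry the IRF8 findings come from regions where peaks of at least 2 libraries of a group overlapped, called consensus regions below. All are printed 5′ to 3′ on the plus strand of GRCm38, as 201 bases centred on the region unless another length is given. Capitals mark a match to the composite motif (GGAA, any 2 bases, then GAAA) on either strand. The first set is every P9 IRF8 region at these genes with such a match within 100 bp of its centre. This set was chosen after the values were seen. They lie upstream of Ctss (chr3:95521265-95521465, intergenic, 5421 bp from the start), upstream of Lamp1 (chr8:13155543-13155743, intergenic, 3518 bp from the start), in an intron of Ctsb (chr14:63129057-63129257, 6695 bp from the start) and over the start of Cd68. For Cd68 the 30 bases around the match are printed (chr11:69666128-69666157, untranslated first exon), because the region covers untranslated sequence.
Ctss, −5.4 kb: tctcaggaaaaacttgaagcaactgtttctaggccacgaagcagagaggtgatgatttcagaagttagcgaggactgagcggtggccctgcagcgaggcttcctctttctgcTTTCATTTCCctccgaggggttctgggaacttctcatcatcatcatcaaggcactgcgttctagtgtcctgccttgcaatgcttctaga
Lamp1, −3.5 kb: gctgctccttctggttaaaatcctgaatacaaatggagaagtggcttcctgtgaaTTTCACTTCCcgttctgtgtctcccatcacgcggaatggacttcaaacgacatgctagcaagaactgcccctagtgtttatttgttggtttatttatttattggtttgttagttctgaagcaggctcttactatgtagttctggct
Ctsb, intron: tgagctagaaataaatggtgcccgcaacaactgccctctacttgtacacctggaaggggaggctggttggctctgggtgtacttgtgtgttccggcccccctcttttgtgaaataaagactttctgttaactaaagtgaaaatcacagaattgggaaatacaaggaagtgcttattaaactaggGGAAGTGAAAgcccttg
Cd68, start: tcttggaagaGGAAATGAAAagcctcactt
The match at Ctss and Lamp1 is on the minus strand, and that at Ctsb and Cd68 on the plus strand.

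The next sequence was the single adult IRF8 region at these genes that overlapped a WT PU.1 region and held the composite letters within 100 bp of its centre, in an intron of Hexa (chr9:59544963-59545163). The other 2 are WT PU.1 regions that had no peak in either IRF8KO library: the one with the highest rank in its lists, 16.6 kb upstream of Lgmn in an intron of Gm30198 (chr12:102456311-102456511), and the only WT PU.1 region in the Ctsh window, over an exon 6.27 kb into the gene (chr9:90060322-90060522). The Ctsh sequence was added after its values were seen. Neither held the composite letters or the ETS core GGAAGT in the 201 bases shown, so no base is in capitals. No match says only that these letters are absent from the stretch.
Hexa, intron: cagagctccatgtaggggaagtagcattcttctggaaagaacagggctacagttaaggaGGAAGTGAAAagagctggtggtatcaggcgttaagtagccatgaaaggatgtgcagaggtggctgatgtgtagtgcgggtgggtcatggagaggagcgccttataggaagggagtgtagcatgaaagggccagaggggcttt
Lgmn, −16.6 kb: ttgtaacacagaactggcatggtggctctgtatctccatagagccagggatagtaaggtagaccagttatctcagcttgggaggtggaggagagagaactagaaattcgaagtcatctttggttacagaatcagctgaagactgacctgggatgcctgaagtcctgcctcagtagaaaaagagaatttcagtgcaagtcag
Ctsh, +6.3 kb: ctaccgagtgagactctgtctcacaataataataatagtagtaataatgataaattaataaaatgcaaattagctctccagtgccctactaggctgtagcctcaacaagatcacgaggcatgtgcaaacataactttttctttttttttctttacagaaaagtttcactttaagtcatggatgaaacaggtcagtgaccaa

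The last set shows the CLEAR core TCACGTGA, which reads the same on both strands, in the promoters of Ctsa, Ctsd, Gla and Mcoln1. RefSeq promoter sequences (250 bases before to 50 after the start, GRCm38) were matched for 32 of the 36 genes, and 4 of them (12.5%) held the core. The same letters were in 304 of 27025 promoters of all genes (1.12%) and in 6 of 54 promoters of other lysosomal genes (11.1%). The 30 bases around each core are given on the gene's own strand, at chr2:164833749-164833778 (Ctsa, plus), chr7:142387908-142387937 (Ctsd, minus), chrX:134601215-134601244 (Gla, minus) and chr8:3500462-3500491 (Mcoln1, plus). Those of Ctsa, Ctsd and Mcoln1 lie in untranslated exons of these genes. The core in the Gla promoter lies in an untranslated exon of Hnrnph2, 50 bp from the Hnrnph2 start, and the start nearest to the Ctsa core in the annotation is that of Neurl2.
Ctsa: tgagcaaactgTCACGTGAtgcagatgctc
Ctsd: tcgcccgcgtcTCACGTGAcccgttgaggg
Gla: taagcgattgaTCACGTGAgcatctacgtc
Mcoln1: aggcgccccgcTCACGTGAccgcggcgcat
Peaks of 2 adult IRF8 libraries covered the cores of Ctsa, Ctsd and Mcoln1, and no IRF8 library had a peak over that of Gla. WT H3K27ac peaks of both libraries covered all 4 cores, whereas PU.1 peaks covered none. In the IRF8KO H3K27ac libraries a peak covered the Mcoln1 core in 1 library and the others in none. The ETS core GGAAGT was in 16 of the 32 promoters (50%), against 26.5% of all promoters and 22 of the 54 of other lysosomal genes (40.7%), and the composite letters were in those of Cd68 and Scarb2 (6.25%, against 3.16% of all and 0 of the 54). A composite match can overlap an ETS core.

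IRF8 was found near lysosomal genes in more of the 36 than of protein-coding genes in general at every stage. At P9, 11 of the 36 had a consensus region in their window, where 7.00% of all protein-coding genes had one. At P14 it was 29 of 36 (32.0% of all genes), in adult microglia 33 of 36 (50.6%) and in peritoneal macrophages 33 of 36 (39.9%). Genes with WT H3K27ac at the promoter are the closer comparison, since 30 of the 36 have it against 34.8% of all genes. Among those genes the shares were 11.8% at P9, 52.9% at P14, 80.5% in the adult and 62.5% in macrophages, and among those 30 members the counts were 7, 23, 28 and 27. In the adult most active genes also had IRF8, and the ratio of the members' share to theirs was the lowest of the 4 groups. Among the 19516 genes with a body length within the members' range, a wide range that leaves out few genes, the shares were 6.95%, 32.8%, 52.2% and 40.8%. The stage counts also move with the length of the peak lists. With all IRF8 lists cut to the length of the shortest, 8 members had a region at P9 (5.84% of all genes), 7 at P14 (5.31%), 10 in the adult (5.41%) and 8 in macrophages (4.40%). Lists of equal length fix the number of peaks beforehand, so these counts compare only the strongest peaks of each group. A peak in such a library does not tell how many of the cells carry it.

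**Figure D1:**
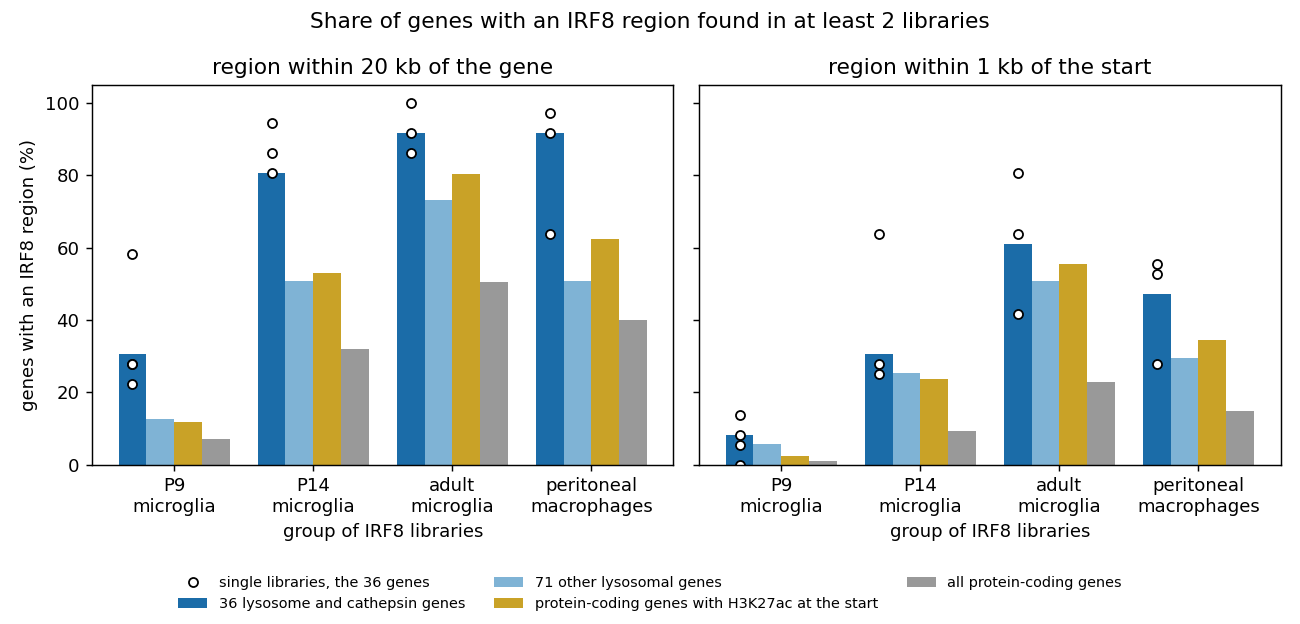
Share of genes (%) with an IRF8 region found in at least 2 libraries of a group, within 20 kb of the gene (left) and within 1 kb of the start (right); bars are the 36 lysosome and cathepsin genes, 71 other lysosomal genes, protein-coding genes with WT H3K27ac at the start, and all protein-coding genes, and open circles are the 36 genes in single libraries. The bars of the 36 genes stand at 11, 29, 33 and 33 genes in the left panel, and 1 P9 library with 21 genes sits apart from the other 3.

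By library, 10, 10, 21 and 8 of the 36 genes had a P9 peak (all genes 6.60%, 5.66%, 10.7% and 6.43%). The third P9 library stood apart and also had the most fragments, 20.9 M, and the most regions, 2068 against 1168 to 1365. Without it, 8 of the 36 genes had a P9 consensus region, against 4.75% of all genes. The counts were 29, 34 and 31 at P14, 33, 36 and 31 in the adult, and 33, 35 and 23 in macrophages. No P14, adult or macrophage library overlapped the P9 range: the lowest of them, 23 in macrophages, and the lowest from microglia, 29 at P14, were above the highest at P9, 21. Genes in general were separated in the same way, with 5.66% to 10.7% of all genes in the P9 libraries and 30.5% to 61.6% in the others. Each stage and the macrophages also had their own IgG control library in peak calling, so stage, cell type and control cannot be told apart. With 71 further lysosomal genes (V-ATPase subunits, other hydrolases, cystatins, transporters and other cathepsins) the counts were 9 at P9 (12.7%), 36 at P14 (50.7%), 52 in the adult (73.2%) and 36 in macrophages (50.7%), lower shares than the members' in each group. The lists within it differed: in the adult 20 of 22 further hydrolases and 14 of 16 V-ATPase subunits had a region, close to the members' 33 of 36, against 2 of 12 other cathepsins.

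The promoter alone held IRF8 at fewer genes. A consensus region lay within 1 kb of the start of 3 of the 36 genes at P9 (1.05% of all genes), 11 at P14 (9.44%), 22 in the adult (23.0%) and 17 in macrophages (15.0%). Of the 30 members with WT H3K27ac at the promoter, 3 had IRF8 there at P9, 11 at P14, 20 in the adult and 16 in macrophages. Among all such genes the shares were 2.55%, 23.8%, 55.4% and 34.5%. The P9 promoters were those of Ctsc, Cd68 and Grn, and without the third P9 library 1 of the 3 was left. Single libraries also moved the later promoter counts: 7 were left at P14 without the second library (4.27% of all genes), 13 in the adult without the second (11.0%), and in macrophages 9 without the first (4.70%) or 8 without the second (5.24%). In adult microglia 32 of the 100 regions at the members (32%) were within 1 kb of a protein-coding start, against 27.2% of all adult regions in gene windows.

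**Figure D2:**
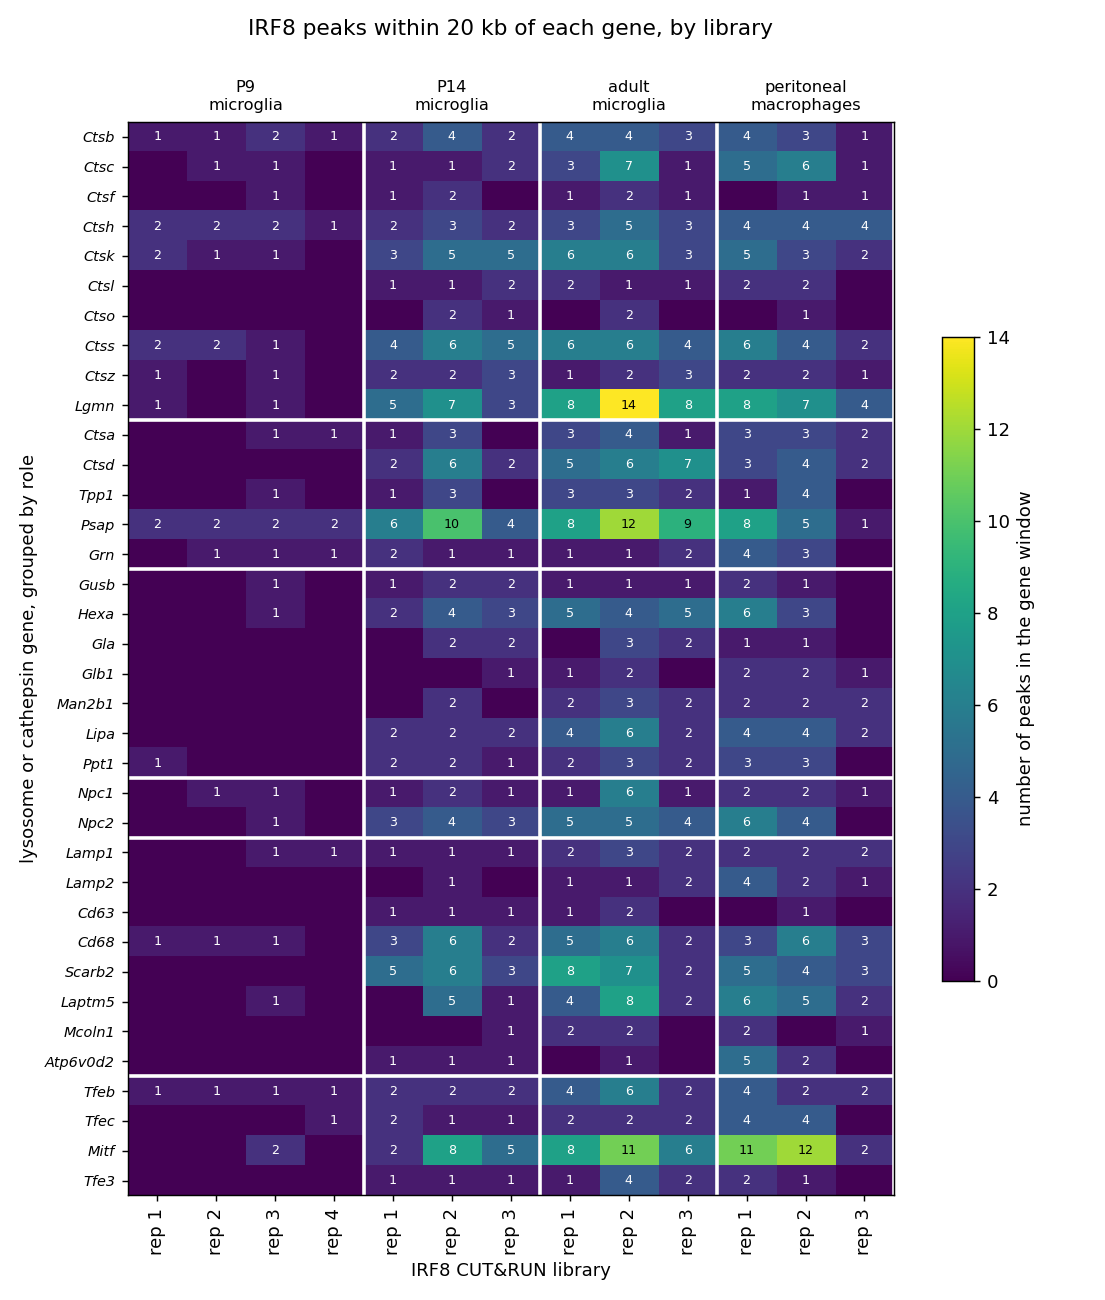
Number of IRF8 peaks in the window of each of the 36 genes (rows, grouped by role from cysteine cathepsins to MiT/TFE factors) in each of the 13 IRF8 libraries (columns); dark empty cells have no peak. Ctsb, Ctsh, Psap and Tfeb have a peak in all 13 libraries, and Lgmn reaches 14 peaks in the second adult library.

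At P9 the consensus regions were at 5 of the 10 cysteine cathepsins and legumain (Ctsb, Ctsc, Ctsh, Ctsk and Ctss), 2 of the 5 other proteases and cofactors (Psap and Grn), 1 of the 2 cholesterol exporters (Npc1), 2 of the 8 membrane proteins (Lamp1 and Cd68), 1 of the 4 MiT/TFE factors (Tfeb) and 0 of the 7 hydrolases. By P14 the counts were 9 of 10, 5 of 5, 2 of 2, 4 of 8, 4 of 4 and, for the hydrolases, 5 of 7. In the adult 7 of 7 hydrolases and 7 of 8 membrane proteins had a region. No test was made between role groups, and the shares of all genes were 7.00% at P9, 32.0% at P14 and 50.6% in the adult. Ctsk and Ctss, which encode neighbouring cathepsins on chromosome 3, share the P9 region and 5 adult regions, so these are not separate observations.

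Among single genes, Ctsb, Ctsh, Psap and Tfeb had a peak in all 4 P9 libraries (2.27% of all genes did) and in all 13 IRF8 libraries (1.86%). Ctsb and Ctsh encode a carboxypeptidase and an aminopeptidase of the cathepsin family, and Psap encodes prosaposin, the precursor of the saposins that help hydrolases reach lipids. A peak in at least 1 P9 library was at 23 of the 36 genes (15.0% of all genes). Ctsk, Ctss, Cd68 and Grn had it in 3 libraries, Ctsc, Ctsz, Lgmn, Ctsa, Npc1 and Lamp1 in 2, and Ctsf, Tpp1, Gusb, Hexa, Ppt1, Npc2, Laptm5, Tfec and Mitf in 1.

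Peaks in all 6 later microglial libraries were at 24 of the 36 genes (20.8% of all genes), and 5 of those, Ctsd, Ctsl, Lipa, Scarb2 and Tfe3, had none in any P9 library (9.16% of all genes). Ctsd encodes the main aspartic protease of the lysosome, Ctsl a cysteine endopeptidase, Lipa the acid lipase, and Scarb2 the membrane protein LIMP-2 that carries glucocerebrosidase to lysosomes. Fisher's exact test of P9 against P14 and adult libraries (two-sided, Benjamini-Hochberg adjustment over 21938 genes) called 0 genes in either direction. With windows of 50 kb instead of 20 kb the same test called 5 of the 36 members and 13.4% of all genes as more often covered later, and 0 at P9. The smallest p that 4 against 6 libraries allow is 0.00476, which those 5 members reached, and after adjustment it was 0.0520. At an unadjusted p under 0.05, 12 of the 36 genes and 22.8% of all genes were more often covered later, and 0 more often at P9. Scored as a peak in every adult and no P9 library, the count was 7 of 36, against 26.9% of all genes. No member had a peak in every adult and no P14 library (2.16% of all genes) or the reverse (0.0137%).

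The 13 P9 regions at these genes, like most P9 regions, were places that the other groups also marked. Every one of the 13 overlapped a consensus region of P14 microglia, adult microglia, macrophages, WT H3K27ac and WT H3K4me1. The corresponding shares of the 1078 P9 regions in all gene windows were 96.0%, 97.1%, 81.0%, 88.6% and 93.7%. WT PU.1 overlapped 11 of the 13 (73.7% of all P9 regions) and IRF8KO PU.1 overlapped 10 (49.0%). IRF8KO H3K27ac consensus regions overlapped 6 of the 13 (41.5%). The nearest protein-coding start of all 13 was that of a member, and 4 held the composite letters within 100 bp of the centre (30.8%, against 15.1% of all P9 regions). In adult regions that share was 4 of 100 (4%, against 5.97%).

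The adult region with the highest mean rank in the 3 adult lists, ahead of that of Grn by a small margin, lay 3.8 kb upstream of Psap, and it was also a P9 region (chr10:60273536-60274080, intergenic). The authors' fold enrichment over the IgG control, used here only to describe peaks within a list, was 7.72, 9.67, 15.0 and 8.63 in the P9 libraries. It was 10.5, 21.9 and 6.75 at P14 and 28.9, 35.1 and 19.5 in the adult. In macrophages the folds were 16.4 and 7.95, and the third library had no peak. The Psap peak ranked above 84.6% to 99.0% of the peaks in each P9 list and above 99.2% to 99.8% in each adult list. Psap had 3 P9 regions, 8 adult regions and 5 WT PU.1 regions.

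Grn encodes progranulin, a secreted and lysosomal protein that binds prosaposin. Its single adult region (chr11:102428649-102433884), which covers the start and the first introns, had folds of 28.0, 31.3 and 25.8, above 99.1% to 99.9% of the peaks in each adult list. The P9 peak within it was called in 3 libraries at 4.92, 6.28 and 4.17 and was absent from the first library. In WT PU.1 it had folds of 21.2 and 14.5, and in IRF8KO PU.1 of 12.8 and 8.03. PU.1 was called there in both libraries of both genotypes.

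The Tfeb region is an intronic site 31.8 kb from the start (chr17:47768523-47769112) with folds of 7.17, 6.73, 7.73 and 5.63 at P9. In the adult they were 16.6, 19.4 and 7.22, and in macrophages 18.2, 12.5 and 4.13. None of the 4 PU.1 libraries had a peak at it. H3K27ac was called there in both WT libraries, with folds of 7.24 and 8.18, and in the first IRF8KO library, at 4.89. It was 1 of the 2 P9 regions without a WT PU.1 region, the other being the upstream site of Ctsh (−19.99 kb).

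The intronic Ctsb site, whose sequence is given above, was called in 3 P9 libraries with folds of 4.74, 5.01 and 7.50. Adult folds there were 19.7, 24.0 and 14.7, and macrophage folds were 8.30, 9.17 and 3.30. PU.1 had folds of 9.08 and 7.24 in WT and of 5.49 and 5.04 in IRF8KO. H3K27ac stood at 12.03 and 21.3 in WT and at 8.95 and 6.23 in IRF8KO. Every WT PU.1, H3K27ac and H3K4me1 region in the Ctsb window had a peak in an IRF8KO library.

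In adult microglia 100 consensus regions lay in the windows of the 36 genes, 41.0 per Mb of window against 12.7 for all genes. Lgmn, which encodes the asparaginyl endopeptidase legumain that activates several cathepsins, had 9 regions. Psap had 8, Scarb2 and Mitf had 7 each, and Ctsk, Ctss, Npc2 and Cd68 had 5 each. Of the 100, 71 had a member as the nearest protein-coding start. The windows of 22 genes hold the start of another protein-coding gene, and when only regions nearest to the member's own start were counted, 27 of the 36 genes kept one in the adult (33.2% of all genes). The corresponding counts were 10 at P9 (3.90%), 24 at P14 (19.0%) and 25 in macrophages (24.8%).

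No adult consensus region was found for Ctsf, Ctso and Atp6v0d2. Ctsf, a cathepsin gene, had peaks in all 3 adult libraries, with folds of 6.44, 5.13 and 4.69 for the strongest, but no 2 libraries overlapped. Ctso had 2 peaks in the second adult library, the stronger at 3.78, and none in the other 2. Atp6v0d2, which encodes a proton pump subunit known from osteoclasts and macrophages, had 1 adult peak, also in the second library, at 4.66. At P14 it had a peak in all 3 libraries and in macrophages in 2, with folds of 8.67 and 7.03. Atp6v0d2 and Ctsk were the 2 members with no H3K27ac peak at the start in either WT library.

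Adult regions at the members overlapped a WT PU.1 region in 36 of 100 cases (36%, exact 95% interval 26.6 to 46.2), against 26.3% of all adult regions in gene windows. H3K27ac overlapped 89 of 100 (81.2 to 94.4), against 81.5%, and H3K4me1 95 of 100 (88.7 to 98.4), against 91.2%. Intervals cover counting error only. In the other direction, all 38 WT PU.1 regions at the members overlapped an adult IRF8 region, where 87.6% of WT PU.1 regions in all gene windows did. Composite letters lay within 100 bp of the centre in 4 of these 38 (10.5%), against 7.48% of WT PU.1 regions in all gene windows.

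Most members had IRF8 in both adult microglia and macrophages. The 2 cell types had a consensus region at 32 of the 36 genes (33.8% of all genes). Without the first macrophage library that count was 18 (14.4%) and without the second 20 (15.9%), and the macrophage count itself fell from 33 to 18 and 20. By peaks, 20 of the 36 had one in every adult and every macrophage library (18.9%). No member had an adult consensus region without a macrophage peak (4.14% of all genes) or the reverse (1.77%). By site, 66 of the 100 adult regions at members overlapped a macrophage region, against 39.8% of adult regions in all windows. Within batch 1, with 2 libraries of each cell type, 0 members had peaks in every adult and no macrophage library (4.85%) and 0 the reverse (3.12%). Both adult libraries of that batch had a peak at 33 of the 36 genes (48.5% of all genes) and both macrophage libraries at 32 (42.2%). Batch 2 had 1 library of each, and there it was 10 of 36 (29.7%), with 2 in the other direction (9.06%). Its adult library had a peak at 31 members (57.3%) and its macrophage library at 23 (36.7%). With 3 libraries against 3, the smallest two-sided exact p for a gene is 0.10, so no test was made.

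WT regions in the gene window were at 21 of the 36 genes for PU.1 (22.4% of all genes) and at 36 of 36 for H3K27ac (61.7%) and for H3K4me1 (79.6%). In IRF8KO they were at 24 (20.9%), 28 (30.1%) and 36 (82.1%). In IRF8KO, PU.1 was still called in at least 1 library at most of its WT sites near these genes. Of 38 WT PU.1 regions at the members, 3 had no peak in either IRF8KO library (7.89%, exact 95% interval 1.66 to 21.4), against 24.0% of WT PU.1 regions in all gene windows. The interval treats the regions as independent and leaves out the spread between libraries, and the size of this share depends on the settings. Leaving out any 1 library gave 16.7% to 33.3% (34.7% to 55.4% in all windows), counting absence from the IRF8KO consensus gave 34.2% (47.3%), and keeping only peaks with a −log10 p of at least 10 gave 4 of 20, or 20% (27.1%). Put by gene, 3 of the 21 members with a WT PU.1 region lost at least 1 (28.7% of all genes with a region): Ctsh, Lgmn and Mitf. The smallest two-sided exact p for 2 libraries against 2 is 0.333, so no genotype difference at a site was tested. The WT PU.1 regions of the members ranked high in their lists (median percentile 75.4), and whether rank accounts for the share kept was not tested. The second PU.1 library of each genotype was called at q 0.05, with another IgG control than the first, which was called at q 0.01.

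Every WT PU.1 region was lost at 1 of the 21 members with a region, against 17.4% of all genes with a region. That member was Ctsh, which had a single WT PU.1 region. At this exonic site, 6.27 kb into the gene (chr9:90060059-90060785), WT PU.1 had folds of 7.06 and 7.93, and neither IRF8KO library had a peak there or anywhere else in the window. IRF8 itself had been called there in all 4 P9 libraries at 3.43, 4.54, 4.53 and 4.38, and in the adult at 24.9, 19.6 and 9.38. H3K27ac at the same site had folds of 16.7 and 17.3 in WT, and in IRF8KO of 6.80 in the first library with no peak in the second. H3K4me1 was called in all 4 libraries, at 4.58 and 3.47 in WT and 5.05 and 4.37 in IRF8KO.

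Other marks of the Ctsh window were lost as well. Of 5 WT H3K27ac regions, 3 had no IRF8KO peak, all upstream, between −23.3 and −14.7 kb from the start, and one of them covers the upstream P9 IRF8 site. Of 6 WT H3K4me1 regions 2 were lost, and no IRF8KO H3K27ac consensus region was in the window. At the upstream site WT H3K27ac stood at 7.88 and 7.85, and adult IRF8 at 10.5, 7.43 and 10.1.

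Lgmn and Mitf each lost 1 PU.1 region and kept others. The Lgmn site 16.6 kb upstream (chr12:102455918-102456905) had WT PU.1 folds of 10.5 and 7.93 and none in IRF8KO, while H3K27ac was called in both IRF8KO libraries at 5.72 and 7.42, and in both WT libraries at 8.02 and 8.83. Adult IRF8 there had folds of 17.4, 11.0 and 13.4. The nearest protein-coding start is that of Golga5. The Mitf site 18.3 kb upstream (chr6:97788497-97788985) was weaker, with WT PU.1 at 3.58 and 3.79 and IRF8 in 2 adult libraries at 3.49 and 3.99. Its WT H3K27ac, 4.03 and 4.71, was also without an IRF8KO peak. With the stricter peak threshold 0 of 1 Mitf PU.1 region was lost, and with lists of equal length 0 of 2.

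PU.1 regions present only in IRF8KO numbered 2 of 35 (5.71%, 0.700 to 19.2), against 15.6% of those in all gene windows. Leaving out any 1 library gave 14.3% to 25.4% (23.3% to 53.0% in all windows), absence from the WT consensus gave 28.6% (38.5%), and a −log10 p of at least 10 gave 2 of 16, or 12.5% (19.0%). The Tfec region lies 146 bp from the start (chr6:16898404-16898770) with folds of 10.2 and 4.97 in IRF8KO and no peak in WT. Tfec encodes the MiT/TFE factor that is largely restricted to macrophages. H3K27ac was called at this start in both genotypes, with folds of 10.0 and 7.43 in WT and 15.0 and 6.71 in IRF8KO. The other, in the Lipa window (chr19:34472026-34473642), had folds of 7.31 and 6.89 and lies nearest to Ch25h, the gene of cholesterol 25-hydroxylase. No IRF8 library had a peak at the Lipa window site, and 2 had one at the Tfec site.

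**Figure D3:**
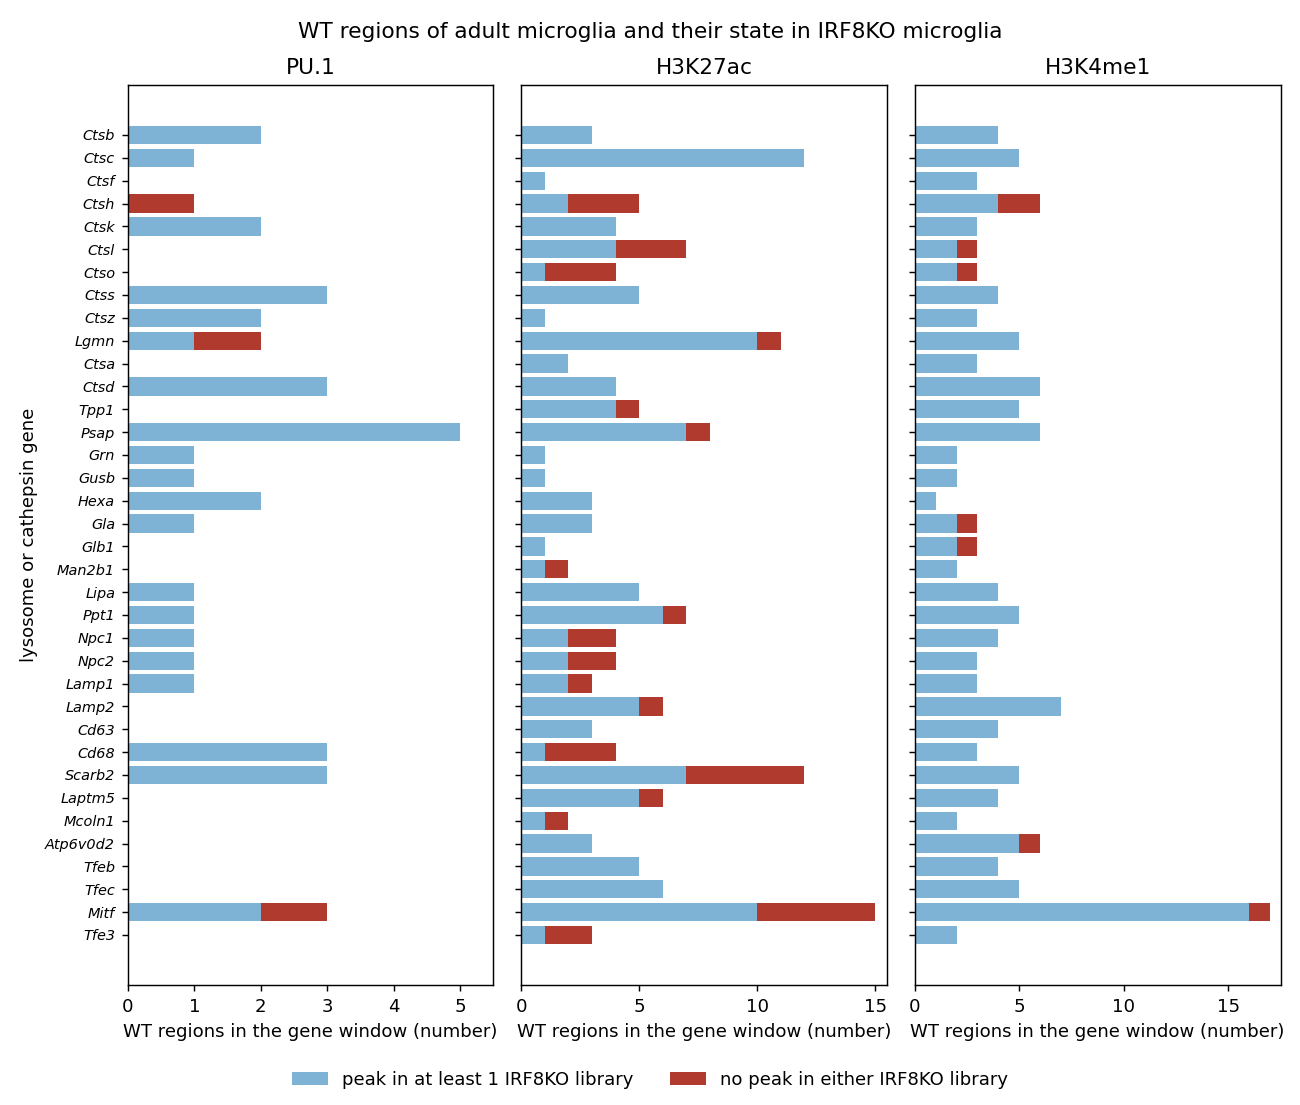
Number of WT consensus regions of PU.1, H3K27ac and H3K4me1 in the window of each of the 36 genes, split into those with a peak in at least 1 IRF8KO library (blue) and those with none (red). PU.1 losses stand at Ctsh, Lgmn and Mitf only, and H3K27ac losses are spread over 18 genes.

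More regions were lost for H3K27ac. Of 167 WT H3K27ac regions at the members, 37 had no peak in either IRF8KO library (22.2%, exact 95% interval 16.1 to 29.2), against 32.3% in all gene windows. At least 1 was lost at 18 of the 36 genes (57.1% of all genes with a region). The second IRF8KO library was shallow, with 8.57 M fragments and 31524 regions against 88400 in the first. Without it, 25.1% of the WT regions at the members were lost and 35.8% of those in all windows. With that library alone, 59.3% were lost, against 71.7%. Leaving out a WT library gave 39.8% (without the first, against 56.8%) and 39.0% (without the second, against 52.5%), and absence from the IRF8KO consensus gave 63.5%, against 77.5%. The stricter peak threshold gave 45.1%, against 50.3%. In every one of these settings the members' share was below that of all windows.

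Losses were uneven across genes, and the counts of single genes depend on the settings. Of 231 recomputed counts of lost PU.1 or H3K27ac regions per gene, 129 stayed within 1.5 times and 102 moved further. Mitf lost 5 of 15 and Scarb2 5 of 12 WT H3K27ac regions. Ctsl lost 3 of 7, Ctsh 3 of 5, Cd68 3 of 4 and Ctso 3 of 4. Tfe3 lost 2 of 3, and the cholesterol exporters Npc1 and Npc2 lost 2 of 4 each. Single regions were lost at Lgmn, Tpp1, Psap, Man2b1, Ppt1, Lamp1, Lamp2, Laptm5 and Mcoln1. By role, 12 of 39 were lost at the membrane proteins, 10 of 49 at the cysteine cathepsins and legumain, 7 of 29 at the MiT/TFE factors, 4 of 8 at the cholesterol exporters, 2 of 22 at the hydrolases and 2 of 20 at the other proteases and cofactors. These differences between role groups were not tested. All WT H3K27ac regions kept a peak in at least 1 IRF8KO library at Ctsb, Ctsc, Ctss, Ctsk, Ctsd, Grn, Tfeb and Tfec, among others.

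Of the WT H3K27ac regions that overlapped adult IRF8, 12 of 81 were lost (14.8%), and of the others 25 of 86 (29.1%). In all gene windows the shares were 20.4% and 39.6%. The difference between bound and unbound regions was not tested. Of the 12, 3 lie over a site that IRF8 already marked at P9 and that kept PU.1 in IRF8KO, upstream of Lamp1 and Psap and at the start of Cd68. At the Lamp1 site WT H3K27ac had folds of 6.74 and 3.46, and PU.1 of 7.33 and 4.83 in WT and 7.61 and 7.65 in IRF8KO. The site upstream of Psap had H3K27ac folds of 4.32 and 3.03 in WT, and PU.1 stood at 12.03 and 6.87 in WT and at 9.08 and 7.31 in IRF8KO. Cd68, which encodes a heavily glycosylated membrane protein used as a marker of phagocytes, had WT H3K27ac at 4.93 and 7.20 across a region that spans the gene, and the peak of the second WT library did not reach the P9 site. PU.1 at the Cd68 start was 14.7 and 13.1 in WT and 9.14 and 8.31 in IRF8KO. These 3 sites had PU.1 in all 4 libraries. H3K27ac was called at the Lamp1 and Psap sites in both WT libraries, at the Cd68 site in the first WT library, and in no IRF8KO library.

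**Figure D4:**
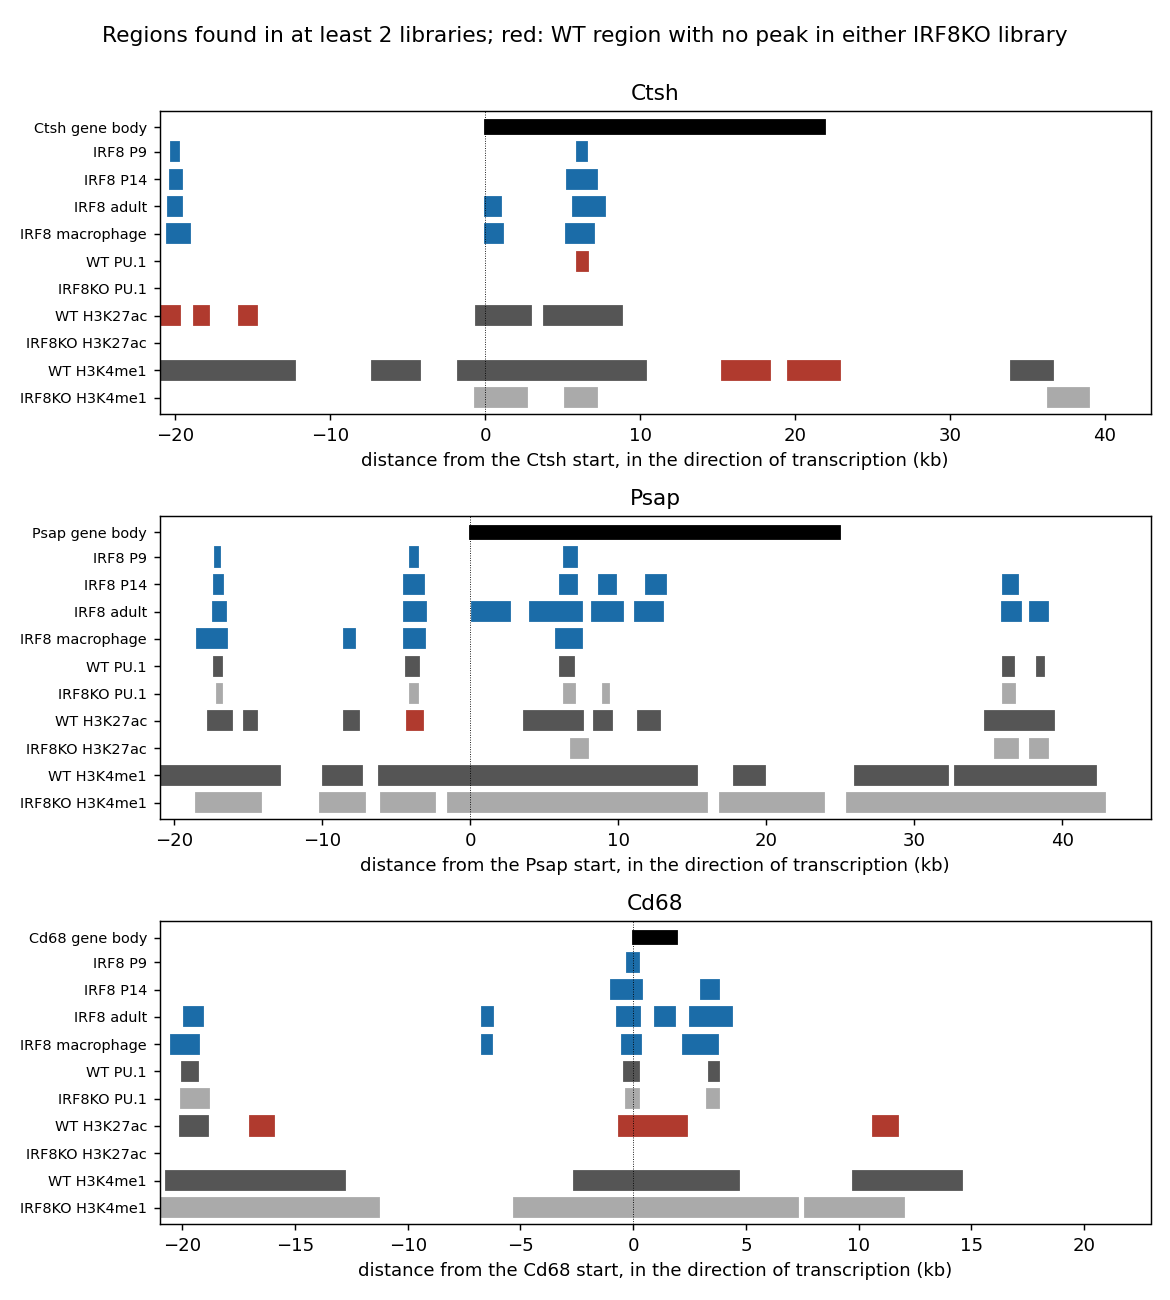
Consensus regions at Ctsh, Psap and Cd68 by distance from the gene's start in kb, in rows for IRF8 (blue), for PU.1, H3K27ac and H3K4me1 in WT (dark grey) and IRF8KO (light grey), with red for a WT region that had no peak in either IRF8KO library; the black bar is the gene body. At Ctsh the PU.1 region and 3 upstream H3K27ac regions are red, while at Psap and Cd68 the PU.1 regions are grey and H3K27ac over the shared site is red.

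At the promoters, 30 of the 36 genes had a WT H3K27ac consensus region, and 5 of these 30 had no H3K27ac peak in either IRF8KO library (22.4% of all such genes). These were Cd68, Man2b1, Npc1, Npc2 and Tfe3. Ppt1 had a peak in each WT library within 1 kb of the start, but the peaks did not overlap there, and it had none in IRF8KO. IRF8KO consensus regions were at 14 of the 36 promoters (9.05% of all genes). H3K27ac regions found only in IRF8KO numbered 5 of 71 (7.04%, 2.33 to 15.7), against 10.0% in all windows. The share was 21.8% without the first IRF8KO library (49.1% in all windows) and 29.4% without the second (52.9%). Tfec had 2 of them, 21753 and 47549 bp from its start, and Ctss, Ctsc and Ctsd had 1 each, with folds between 3.39 and 8.14.

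Few H3K4me1 regions were lost. Of 147 WT regions at the members 8 were lost (5.44%, 2.38 to 10.4), against 9.08% in all windows. Leaving out any 1 library gave 10.2% to 12.9% (15.2% to 32.2% in all windows), and absence from the IRF8KO consensus 16.3% (24.3%). Of the WT regions that overlapped adult IRF8, 0 of 66 were lost (2.21% in all windows). The 8 were 2 at Ctsh and 1 each at Ctsl, Ctso, Gla, Glb1, Atp6v0d2 and Mitf. Regions found only in IRF8KO were 22 of 156 (14.1%, 9.05 to 20.6), against 22.2%. At least 1 was at 14 of the 36 genes (51.3% of all genes with a region). The share was 31.8% without the first IRF8KO library (50.2% in all windows), and 19.9% to 20.5% without any other. Among the 71 other lysosomal genes the lost shares were 12 of 41 PU.1 regions (29.3%), 38 of 173 H3K27ac regions (22.0%) and 9 of 193 H3K4me1 regions (4.66%).

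Markers of cell types were read from WT H3K27ac at the start in both libraries. It was found at 5 of 6 microglial markers, 2 of 4 markers of peritoneal macrophages, 0 of 3 neuronal, 0 of 3 astrocytic, 2 of 3 oligodendrocytic, 1 of 2 endothelial and 0 of 2 T cell markers. In both IRF8KO libraries it was found at 2, 1, 0, 0, 0, 0 and 0 of the same lists. In at least 1 library the counts were 6, 3, 0, 0, 2, 1 and 0 in WT and 3, 2, 0, 0, 1, 0 and 0 in IRF8KO. Each of the 4 lists with such a start in WT had a lower count in IRF8KO. Among all genes, H3K27ac consensus regions at the start went from 34.8% in WT to 9.05% in IRF8KO. The part of these lists in the H3K27ac losses at the lysosomal genes was not tested.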

How the data were processed

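CUT&RUN peak lists of 25 libraries from mouse cells were analysed. The build is mm10 (GRCm38), per the submitters' processing notes, which also name Bowtie2, Trim Galore, deepTools and bcl2fastq without versions. Peaks were called per library against an IgG control with MACS 2.2.7.1 (IRF8, PU.1) or 2.2.6 (H3K27ac, H3K4me1), per the file headers. The cutoff was q 0.01 for IRF8, H3K27ac and the first PU.1 library of each genotype, q 0.05 for the second, and p 0.01 in broad mode for H3K4me1. The deposited columns are the pileup signal, the −log10 p-value and the fold enrichment over control, a ratio, as the authors' caller gave them. Fragments per library ran from 7.25 to 24.7 M, and from 1168 to 189351 unique regions.

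Genes, exons and starts came from GENCODE vM21, sequences from the GRCm38 genome and RefSeq promoters. Regions overlapping in at least 2 libraries of a group formed consensus regions. A WT region was lost when neither IRF8KO library had a peak in it. Counts at the members were set beside the same counts over all protein-coding genes or windows, since depth, control and cutoffs differ between lists. P9 was compared with later microglia by Fisher's exact test per gene. The test was checked on simulated data with a large share of strongly changed genes, so that check does not tell its power here. Alternatives changed the window, the peak threshold (−log10 p of at least 10), the list length (all lists of a target cut to the shortest), the consensus rule and the libraries. For the overlap of adult regions, the adult IRF8 lists and the WT lists of the other target were cut together to the shortest of them. Genes named were those with a lost or IRF8KO-only PU.1 or H3K27ac region, a P9 peak, no adult region or the most adult regions, the 4 MiT/TFE factors and Ctsb. Members and lists were chosen with earlier results of these data known. The 4 IgG samples had no peak list and were not used. Analyses used Python 3.11.15, NumPy 2.4.6, SciPy 1.17.1 and pysam 0.24.0.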

Additional observations from a re-analysis of the deposited data

Results flagged for a closer look

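The number of the 36 genes with a P9 IRF8 peak was 10, 10, 21 and 8 in the 4 libraries, and the third stood apart. Its gap to the nearest of the others was 0.846 of the range, above the critical value of Dixon's test for 4 samples. Chance flags about 1 in 20 groups. That library also had the most fragments of the 4 (20.9 M against 13.4 to 18.4 M) and the most regions, and in it 10.7% of all protein-coding genes had a peak, against 5.66% to 6.60% in the others.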

How the results depend on the processing

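Of 273 recomputed values, 195 stayed within 1.5 times a count or inside the exact 95% interval of a share. Gene body alone gave 7 P9 members (all genes 3.22%), 2 with an adult region and no macrophage peak (6.24% of all genes), and 8.70% H3K4me1 regions only in IRF8KO (21.1% in all windows). A 5 kb window gave 1 adult member without a macrophage peak (5.21%). With 50 kb windows the stage test called 5 members and 13.4% of all genes, higher later. A threshold of −log10 p of at least 10 gave 6 P9 members (3.47% of all genes), 1 promoter at P9 (0.428%), 12 in the adult (11.2%) and 6 in macrophages (4.88%), and 4 adult members without a macrophage peak (9.09%). It gave 20% PU.1 regions lost (27.1% in all windows) and 12.5% only in IRF8KO (19.0%), 45.1% H3K27ac regions lost (50.3%), 1 H3K4me1 region of 1 only in IRF8KO (100%, against 63.1%), and 66.1% of adult regions with H3K27ac (63.6%) and 0% with H3K4me1 (0.352%). Lists of equal length, which keep the strongest peaks of each list, gave 8 members at P9 (5.84% of all genes), 7 at P14 (5.31%), 10 in the adult (5.41%) and 8 in macrophages (4.40%); equal lists fix the number of peaks beforehand. Promoters were then 3 at P14 (0.816%), 2 in the adult (0.884%) and 2 in macrophages (0.638%), members in both cell types 6 (1.82%), and those in the adult or macrophages alone 1 (2.59%) and 1 (1.92%). H3K4me1 loss was 10.49% (11.5% in all windows), and adult overlap was 47.3% (PU.1, against 40.2%), 50% (H3K27ac, 46.4%) and 56.7% (H3K4me1, 53.7%). Consensus of all libraries gave 3 members at P9 (1.99% of all genes), 19 in macrophages (14.8%), 18 in both cell types (11.5%) and 50.9% PU.1 overlap (39.1%). Counting absence from the other genotype's consensus gave losses of 34.2% for PU.1 (47.3% in all windows), 63.5% for H3K27ac (77.5%) and 16.3% for H3K4me1 (24.3%), and IRF8KO-only shares of 28.6% for PU.1 (38.5%) and 25.0% for H3K4me1 (42.7%). Any transcript start gave 7 P9 promoters (1.52%). Batch 2 alone gave 10 and 2 members in 1 cell type. Matches anywhere in a region, a longer stretch, were 76.9% for the ETS core at P9 (66.5% in all windows), 73.0% in the adult (72.9%) and 78.9% in WT PU.1 (77.7%), and for the composite 28.0% in the adult (23.0%) and 34.2% in WT PU.1 (19.2%). The cause was not tested.

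Leaving out 1 library at a time gave promoter counts of 1 to 3 at P9 (0.666% to 0.884% of all genes), 7 to 10 at P14 (4.27% to 6.95%), 13 to 19 in the adult (11.0% to 20.1%) and 8 to 13 in macrophages (4.70% to 12.9%). Window counts were 18 to 32 in macrophages (16.2% to 37.1%) and 18 to 31 in both cell types (14.4% to 32.4%), lowest without the first macrophage library (18) or the second (20). Members in 1 cell type alone numbered 0 to 1 either way. With all libraries kept, 0 members had an adult region and no macrophage peak, against 4.14% of all genes. The reverse was also at 0 members, against 1.77% of all genes. Losses ranged from 16.7% to 33.3% (PU.1), 25.1% to 59.3% (H3K27ac) and 10.2% to 12.9% (H3K4me1). IRF8KO-only shares ranged from 14.3% to 25.4%, 9.86% to 29.4% and 19.9% to 31.8%. Adult overlap ranged from 38.9% to 52.0% with PU.1 and 91.0% to 98.4% with H3K4me1. With all libraries kept it was 36% and 95%, against 26.3% and 91.2% of adult regions in all windows. These ranges are given for the members alone, so they do not tell whether that gap holds. With 1 library left in a genotype its single peaks stood for consensus regions.

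Same-numbered microglial libraries of P9, P14 and the adult deviated together in 1 of 9 pairs, a P14 and adult pair, and in none with P9 (correlations −0.024 to 0.157). The labels do not say whether a shared number means a shared preparation, and these correlations cannot decide it. The replicate block (exact permutation within the number) called 0 members in either direction. The few permutations within a number cannot give a p that passes the adjustment unless most genes reach it, so this count says nothing of stability.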
